A study of Mus musculus with 6 samples.

Results

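B cells were studied in mouse mammary tumours grown from Py8119, an injected mouse mammary tumour cell line, in female mice with and without Mtdh, a gene for a membrane-associated protein implicated in tumour growth. Live cells carrying CD45, the common marker of blood-derived cells, were sorted and read with 10x droplet 3′ RNA sequencing. There were 6 groups of 1 library each. Intact Mtdh knockout (KO) mice were 1 group. In 2 more groups, irradiated KO or wild-type (WT) hosts had been given KO marrow. Intact WT mice were the fourth group, and in the last 2 groups irradiated KO or WT hosts had been given WT marrow. Transplanted groups are named below by marrow first and host second, so that KO-to-WT means KO marrow given to a WT host. Marrow recipients received tumour cells at 8 weeks, tumours were taken 4 weeks later, and some 15000 sorted cells went into each library. The labels give no age, strain, kind of knockout allele or number of mice per library. They also do not say how many host blood cells outlived irradiation. Marrow gives rise to blood-derived cells, and an intact mouse carries 1 genotype in marrow and host.

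A cell barcode was kept when it held at least 200 genes and at most 15% mitochondrial unique molecular identifiers (UMIs, counts of single captured RNA molecules). A kept barcode was called a B cell when Cd79a, Cd79b and Ms4a1 together gave at least 3 UMIs, Cd3d, Cd3e and Cd3g gave 0, and the 3 C1q genes took less than 1% of its UMIs. These 9 genes therefore describe the choice and are not results. Of 40418 kept barcodes in 6 libraries, 1232 were B cells. They numbered 646 in intact KO, 85 in KO-to-KO, 230 in KO-to-WT, 203 in intact WT and 60 in WT-to-KO. The library of WT-to-WT is stated apart because it held 8. At the lower edge of the rule, 51 B cells had exactly 3 marker UMIs and 88 kept barcodes just outside it had 2. A further 64 barcodes with B cell markers were left out for a Cd3 UMI and 169 for C1q. Libraries held 85616443 to 142779550 UMIs in all. No B cell barcode occurred in more than 1 library.

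B cells bind antigen with a surface immunoglobulin that signals through CD79A and CD79B, and they develop in marrow under the transcription factors EBF1 and PAX5. A naive follicular B cell carries IgM together with IgD. After antigen and T cell help it may enter a germinal centre, switch its heavy chain to IgG, IgA or IgE, and mature to a plasma cell, which loses PAX5 and CD20 (the product of Ms4a1) and secretes antibody. In tumours, B cells present antigen on MHC class II, make antibody and cytokines, and often lie in lymphoid aggregates with T cells.

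The first question the design poses is whether B cells were more or less frequent with KO marrow or in a KO host. B cells made up 9.19% of kept barcodes in intact KO (95% exact binomial interval 8.53% to 9.89%). They made up 1.04% in KO-to-KO (0.835% to 1.29%) and 3.91% in KO-to-WT (3.43% to 4.44%). With WT marrow, they made up 2.85% in intact WT (2.48% to 3.26%), 1.04% in WT-to-KO (0.797% to 1.34%) and 0.123% in WT-to-WT (0.0532% to 0.242%). These intervals cover counting error only, since no group has a second library. Shares of KO and WT marrow overlapped: the KO-marrow library with the lowest share, in a KO host, was below intact WT.

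Matched pairs of libraries differed widely. The ratio of the share with KO over WT marrow was 3.23 in intact mice, 1.0 in KO hosts and 31.8 in WT hosts, where the WT-marrow count was 8 cells. The mean log2 difference of KO minus WT marrow was 2.23 (exact permutation test, two-sided, n = 3 libraries each, p = 0.2; the smallest p this design allows is 0.1). For the host, the KO over WT ratio was 3.23 in intact mice, 0.267 with KO marrow and 8.48 with WT marrow. The mean log2 difference of KO minus WT hosts was 0.96 (exact permutation test, n = 3 each, p = 0.8), so neither genotype separated the libraries.

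A share of kept barcodes falls when macrophages or T cells are numerous, so B cells were also counted against T cells, defined by at least 3 Cd3 UMIs and no B cell marker UMI. B cells were 48.3% of B and T cells in intact KO (45.6% to 51.0%), 5.18% in KO-to-KO (4.16% to 6.36%) and 35.5% in KO-to-WT (31.9% to 39.4%). They were 52.9% in intact WT (47.7% to 58.0%), 27.8% in WT-to-KO (21.9% to 34.3%) and 2.45% in WT-to-WT (1.07% to 4.78%). In intact mice the KO over WT ratio of 3.23 on the first denominator was 0.914 on the second. In KO hosts the ratio of KO over WT marrow was 1.0 on the first denominator and 0.186 on the second, where the KO-marrow library held 1557 T cells and the WT-marrow library 156. The mean log2 difference of KO minus WT marrow was 0.43 (exact permutation test, n = 3 each, p = 0.7), and it changed sign when intact KO or WT-to-WT was left out, to -0.18 and -0.89.

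**Figure D1:**
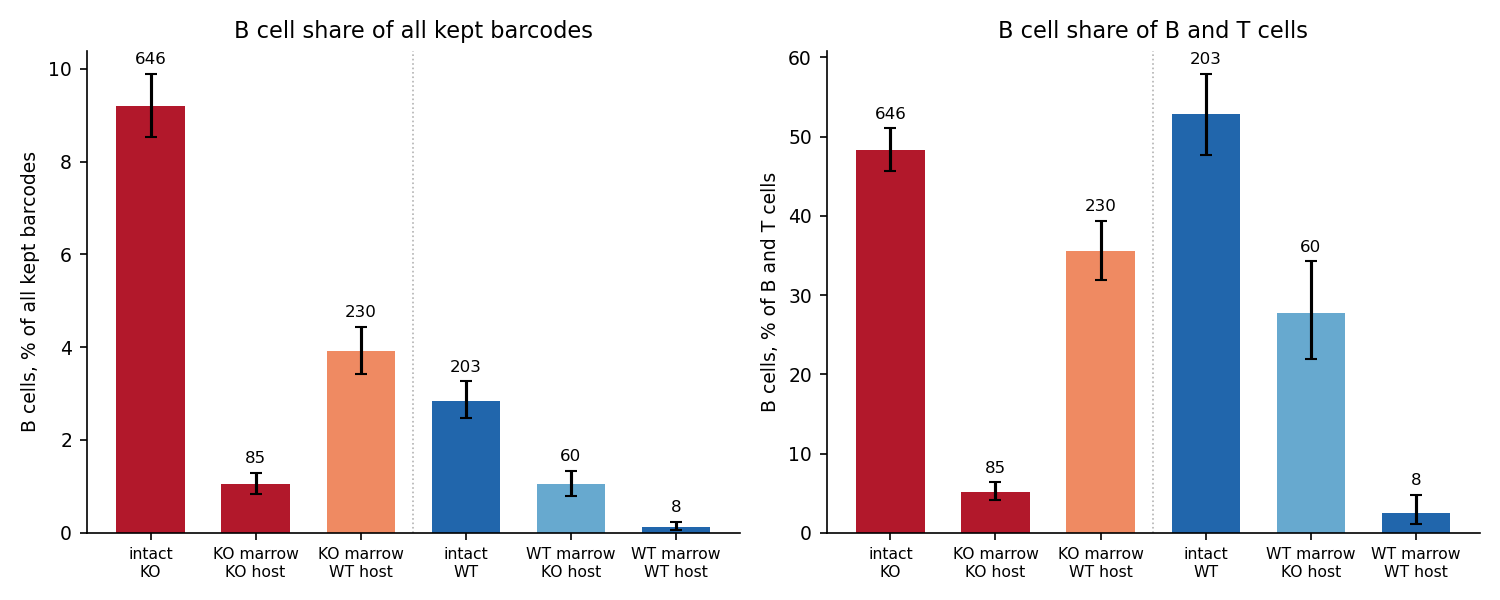
B cells as a percentage of all kept barcodes (left) and of B and T cells together (right), 1 bar per library, with 95% exact binomial intervals that cover counting error only; the number above each bar is its count of B cells. Intact KO leads the left panel at 9.19%, while on the right intact KO at 48.3% and intact WT at 52.9% lie close together and KO-to-KO stands at 5.18%.

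B cell barcodes ranged widely in size, and a limit of 8000 UMIs was used to split them. Sizes ran on across it, as in intact WT with cells of 7782 and 8105 UMIs. Medians were 2196 to 3486.5 UMIs in the smaller B cells of 5 libraries, against medians of 5079 to 7536 UMIs for T cells and 13962 to 20173 for macrophages (C1q share of at least 1%, with 0 UMIs of the B cell and Cd3 markers). However, 118 of the 1232 had more than 8000 UMIs. In intact KO they were 49 cells with 35.2% of all B cell UMIs, and in WT-to-KO 10 cells with 72.8%. Of the 118, 13 were plasma cells, described below. Among the other 105, 47 had over 1% of their UMIs in the macrophage genes Csf1r, Adgre1, Apoe, Lyz2 and Cd68, and 15 had at least 10 UMIs of Krt8, Krt18, Sparc and Col1a1, genes of epithelial or mesenchymal cells. Of the 1114 B cells of at most 8000 UMIs, 21 and 0 did so. Among the 105 large cells, 46 met neither limit. A Pax5 UMI was present in 73 of the 105 (69.5%), against 62.6% of the smaller B cells, which held fewer UMIs per cell. In WT-to-WT, 4 of the 8 B cells were over 8000 UMIs and none of those 4 held a Pax5 UMI. Levels below are therefore those of the 1114 smaller B cells, a limit set after these values were seen, and the gene counts and several list medians over all 1232 are given beside them.

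**Figure D2:**
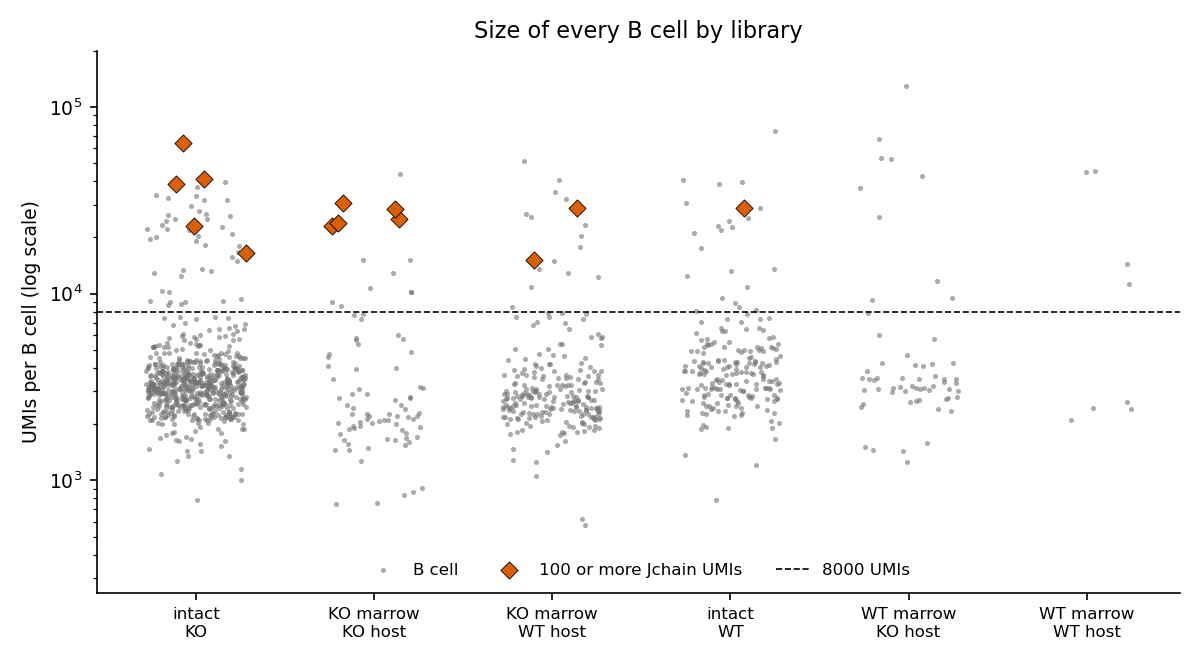
UMIs of every B cell (log axis) by library, with 1 point per cell, a dashed line at 8000 UMIs and diamonds for cells with at least 100 Jchain UMIs. The bulk of cells lies below the line in 5 libraries, 4 of 8 cells lie above it in WT-to-WT, and all 13 diamonds lie above it.

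The smaller B cells carried the genes of the lineage that the rule had not used. Pax5, the factor that fixes B cell identity, had 515 CPM (UMIs of the gene per 1000000 UMIs of the library's B cells) in intact KO, 167 in KO-to-KO and 190 in KO-to-WT. It had 565 CPM in intact WT and 189 in WT-to-KO. T cells and macrophages held almost none: the mean over 5 libraries was 325 CPM in B cells, against 0.0271 in T cells and 0.0763 in macrophages. Ebf1, which acts upstream of Pax5, led all genes by its ratio over T cells and macrophages (mean 2633 CPM in B cells). Igkc, Ly6d, Iglc2, Ighd, Fcmr, Bank1, Iglc3, Iglc1, Gm31243, Pax5 and Scd1 followed, beside the 3 marker genes, whose place the rule fixed. The order is a description, since these genes come from the cells that were chosen.

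Several of these genes differed between intact and transplanted libraries and little between genotypes. Ebf1 had 4122 CPM in intact KO mice and 3863 in intact WT mice, against 1535 in KO-to-KO, 1598 in KO-to-WT and 2049 in WT-to-KO. Bach2, a repressor of plasma cell fate, had 1757 CPM in intact KO mice and 1460 in intact WT mice, but 83.5 in KO-to-KO, 96.7 in KO-to-WT and 128 in WT-to-KO. Bank1, an adaptor of the receptor, had 2635 CPM in intact KO mice and 2372 in intact WT mice, against 311 to 402 in the 3 transplanted libraries. Intact libraries were made with another Cell Ranger version than transplanted ones, so transplantation and software cannot be told apart, and each gene comparison below holds a term for it.

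**Figure D3:**
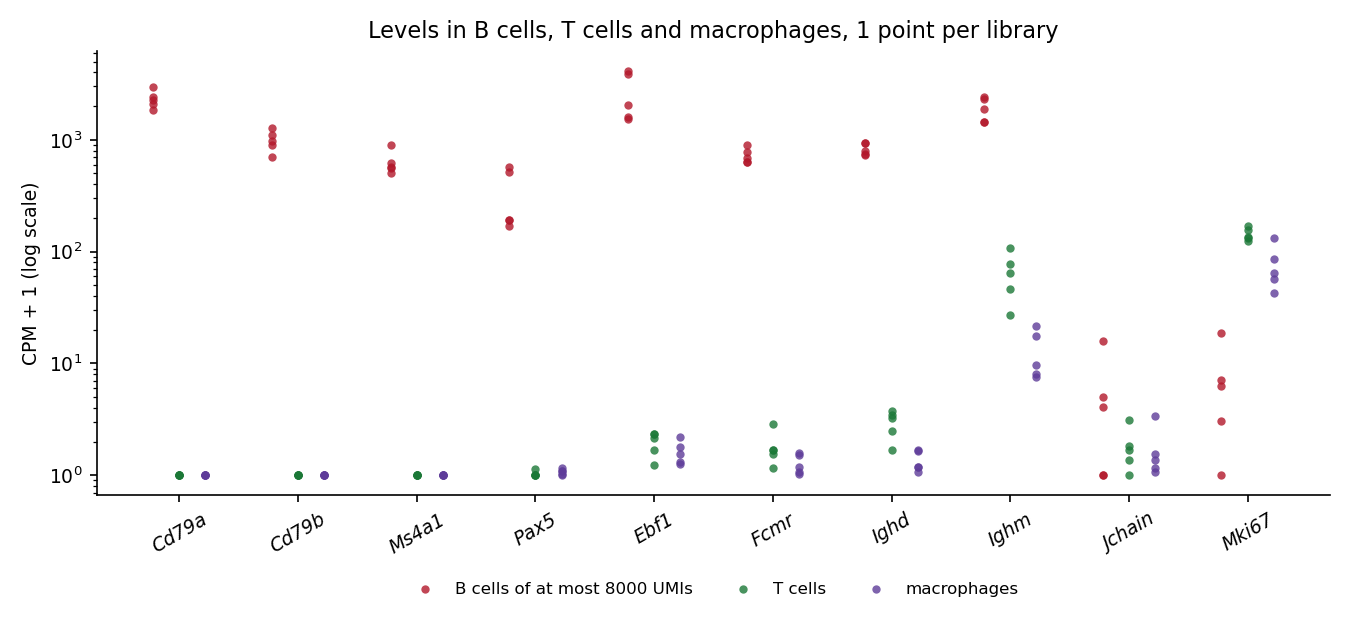
Levels (CPM plus 1, log axis) of 10 genes in B cells of at most 8000 UMIs, T cells and macrophages, with 1 point for each of the 5 libraries with at least 20 B cells. Cd79a, Cd79b and Ms4a1 were used by the rule; Pax5, Ebf1, Fcmr and Ighd stand above T cells and macrophages in every library, and Jchain and Mki67 stay below 20 CPM in B cells.

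By their immunoglobulin genes the smaller B cells were unswitched and carried both early isotypes. An Ighm UMI was present in 96.8% of them in intact KO, 95.7% in KO-to-KO, 98.1% in KO-to-WT, 97.8% in intact WT and 100% in WT-to-KO. In T cells, which should lack it, that share was 11.7% to 35.4%, at the higher depth per cell given above (median of 3187 UMIs in the smaller B cells of intact KO and 6088 in its T cells). After thinning each cell to 1000 UMIs the Ighm shares were 73.2% to 82.5% in the smaller B cells of these 5 libraries and 3.21% to 10.1% in their T cells. Ighd, the IgD heavy chain, had a lower level in T cells. It was seen in 86.1% of the smaller B cells in intact KO, 68.6% in KO-to-KO, 94.4% in KO-to-WT, 86.1% in intact WT and 88.0% in WT-to-KO, against 0.641% to 2.46% of T cells. After thinning each cell to 1000 UMIs the Ighd shares were 51.2%, 53.8%, 57.8%, 46.9% and 66.0% in the same order, so the unthinned share of KO-to-KO was the lowest of the 5 and its thinned share was the third highest. The level of Ighd was 791 CPM in intact KO, 726 in KO-to-KO and 941 in KO-to-WT, against 745 in intact WT and 939 in WT-to-KO, and it did not pass the test in any comparison.

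Switched cells were rare among them. A cell counted as switched when its IgG, IgA and IgE heavy chain UMIs outnumbered Ighm and Ighd together. Among smaller B cells with a heavy chain UMI, 2 of 592 were switched in intact KO, 1 of 69 in KO-to-KO and 0 of 212 in KO-to-WT, against 1 of 178 in intact WT and 0 of 50 in WT-to-KO. A count of 0 of 212 allows a share of up to 1.42%, and 0 of 50 one of up to 6%. Over all B cells, plasma cells and other large cells included, the switched share was 2.66% in intact KO, 8.33% in KO-to-KO and 0.442% in KO-to-WT. It was 1.01% in intact WT and 1.85% in WT-to-KO. The mean was 3.81% with KO marrow and 1.43% with WT marrow (exact permutation test, n = 3 and 2 libraries, p = 0.6; the smallest p possible is 0.2). Switched cells of intact KO numbered 17 over all B cells, of which 5 were plasma cells, against the 2 smaller ones. Most switched cells of that library were therefore large cells other than plasma cells, which the limit on size left out. KO-to-KO held 7 switched cells over all B cells, of which 5 were plasma cells. The rarity of switched cells among smaller B cells thus depends in part on that limit, which was set after values were seen.

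Light chains were mostly kappa. Each B cell normally makes either kappa or lambda, and in mice kappa prevails. With a call at 5 light chain UMIs and 80% of 1 kind, lambda was 5.39% of called smaller B cells in intact KO (3.49% to 7.92%), 10.0% in KO-to-KO (2.79% to 23.7%) and 6.52% in KO-to-WT (3.03% to 12.02%). It was 5.45% in intact WT (2.03% to 11.5%) and 10.3% in WT-to-KO (2.19% to 27.4%), so the counting intervals of all 5 libraries overlap. Between 23.3% and 42.9% of smaller B cells with enough UMIs had neither kind at 80%. A lambda constant UMI was also present in 77.8% to 96.2% of cells called kappa in these 5 libraries, against 0 to 0.963% of T cells. Iglc1, Iglc2 and Iglc3 were summed here, and the source of the lambda UMIs in cells called kappa was not tested. For single lambda genes, reads shared between close copies may be split in ways the counting cannot resolve. Variable genes were read in part: an Ighv UMI was found in 122 of 597 smaller B cells of intact KO, spread over 52 Ighv genes, of which Ighv3-6, the most frequent, was in 9 cells. In KO-to-WT 49 cells spread over 32 Ighv genes, and in intact WT 55 cells over 37.

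Plasma cells were few but carried much of the immunoglobulin RNA. Jchain, which joins IgA and IgM into polymers, had 114 to 826 UMIs in 13 B cells, while the next cell had 16 and 1203 of the 1232 had none. The 13 cells had 15192 to 63834 UMIs, no Pax5 UMI, no Ms4a1 UMI in 7 of them, and 7.67% to 69.6% of their UMIs in immunoglobulin genes and Jchain. Some of them also met the limits used above for other cell types. The cell of 63834 UMIs, from intact KO, held 77 UMIs of the epithelial or mesenchymal genes. A cell of 41091 UMIs in intact KO had 2.48% of its UMIs in the macrophage genes, and 1 of 28425 UMIs in KO-to-KO had 1.39%. In each of the 13 cells at least 99.1% of constant heavy chain UMIs came from 1 gene. Intact KO held 5 of them, 3 with Ighg1, 1 with Ighg2b and 1 with Ighg2c. KO-to-KO held 5, 4 with Igha and 1 with Ighg2c, and KO-to-WT held 2, 1 with Ighm and 1 with Ighg1. Intact WT held 1, with Ighg1, and WT-to-KO and WT-to-WT held 0.

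As a share of B cells, plasma cells were 0.774% in intact KO (0.252% to 1.80%), 5.88% in KO-to-KO (1.94% to 13.2%) and 0.870% in KO-to-WT (0.106% to 3.11%). They were 0.493% in intact WT (0.0125% to 2.71%), and the 0 of 60 in WT-to-KO allows up to 5%. IgA plasma cells were seen in 1 library only, KO-to-KO, and 9486 of the 9553 Igha UMIs of all B cells lay in those 4 cells. The rule asks for Cd79a, Cd79b or Ms4a1, which plasma cells lower, so these 13 are those that still passed it.

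**Figure D4:**
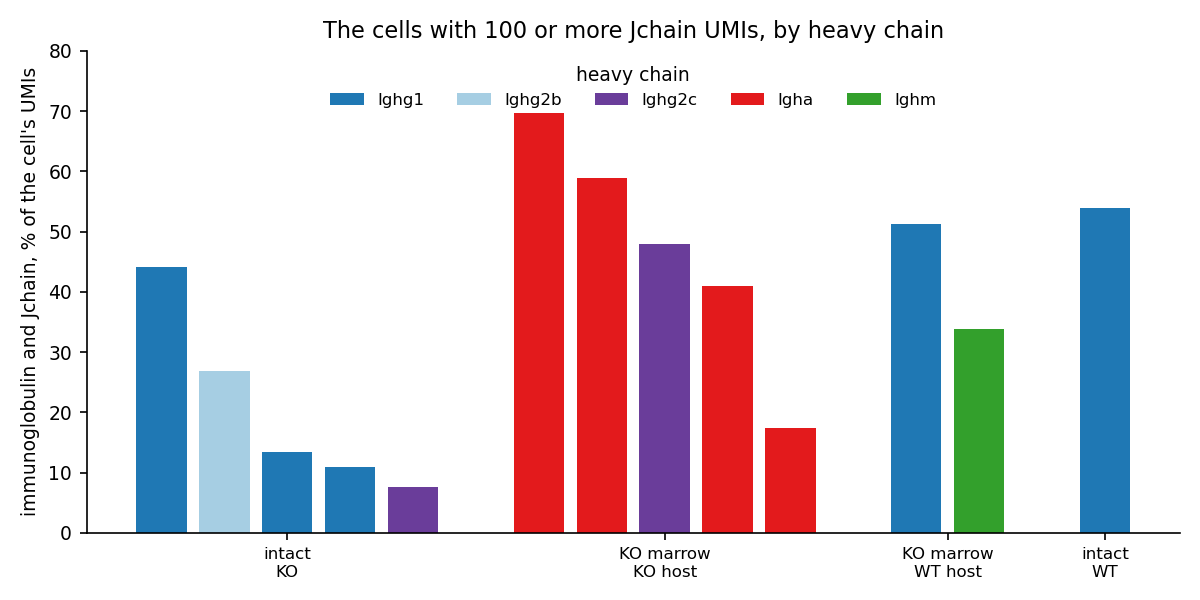
Share of each plasma cell's UMIs from immunoglobulin genes and Jchain, 1 bar per cell (13 cells), coloured by its heavy chain and grouped by library. The 4 Igha cells all come from KO-to-KO, and 8 of the 13 use an IgG gene.

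Mki67 and Il10 were seen in few of the smaller B cells. A UMI of any gene of the wider proliferation list was seen in 78.6% to 88% of them in the 5 libraries. For the regulatory list that share was 38.6% to 61.7%. The T cells set beside them had no limit on size. Mki67, a marker of dividing cells, was seen in 0.670% of smaller B cells in intact KO, 1.43% in KO-to-KO, 0 of 213 in KO-to-WT (which allows up to 1.41%), 3.33% in intact WT and 2% in WT-to-KO. In T cells of the same 5 libraries it was seen in 14.1% to 22.9%. At 1000 UMIs per cell the Mki67 shares were 0 to 0.559% in the smaller B cells and 4.197% to 7.59% in T cells. Over all B cells, large ones included, the mean Mki67 level of the 5 libraries was 59.4 CPM. That lies above the level of the smaller B cells in each of these libraries. The low Mki67 shares therefore hold for the smaller B cells only. Some large cells also held RNA of other cell types, and whether the limit on size left out dividing B cells was not tested. Il10, the cytokine of regulatory B cells, was seen in 5 smaller B cells of intact KO and 1 of intact WT. These shares of 0.838% and 0.556% were below the 4.92% and 2.76% of T cells. They are given without thinning, and T cells held more UMIs per cell. Cr2, the complement receptor CD21 that is high on marginal zone and follicular B cells, had 162 CPM in intact KO, 172 in KO-to-KO and 158 in KO-to-WT, against 332 in intact WT and 85.4 in WT-to-KO. Cr2 did not pass the test by marrow or host genotype.

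Mtdh (chr15:34082694-34145624, plus strand, GRCm38) followed the marrow labels in these cells. Its level was 43.6 CPM in intact KO (exact Poisson interval 34.9 to 53.8, from 86 UMIs), 5.22 in KO-to-KO (0.132 to 29.1, from 1 UMI) and 49.1 in KO-to-WT (33.6 to 69.4, from 32 UMIs). It was 126 CPM in intact WT (101 to 156, from 85 UMIs), 171 in WT-to-KO (113 to 247, from 28 UMIs) and 209 in WT-to-WT (2 UMIs). The libraries with KO marrow did not overlap those with WT marrow, and RNA of Mtdh was still read in B cells of KO marrow. T cells had 21.7, 14.7 and 21.2 CPM of Mtdh in the same 3 KO-marrow libraries, against 102, 116 and 87.1 CPM in the 3 WT-marrow libraries. Whether the 3′ reads fall outside the deleted part was not tested. The log2 fold change by marrow was -1.90 (SE 0.45), with an adjusted p of 0.710 over 6823 genes (edgeR quasi-likelihood test, Benjamini-Hochberg), which did not pass.

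Gene levels were compared on UMIs summed over the smaller B cells of each of the 5 libraries with at least 20 B cells, in 1 fit with terms for marrow genotype, host genotype and transplantation. For marrow genotype 0 of 6823 genes passed an adjusted p of 0.05 with edgeR, a background of 0.0%, and 246 had an unadjusted p under that value. DESeq2 called 0 as well. For host genotype 3 genes passed, 0.044% of those tested, 1 higher (0.0147%) and 2 lower (0.0293%). Cxcl9, a chemokine of macrophages, had 45.1 CPM in intact KO, 198 in KO-to-KO and 61.0 in WT-to-KO, against 4.46 in intact WT and 4.61 in KO-to-WT, with no overlap between hosts (edgeR log2 fold change 4.05, SE 0.63, adjusted p = 0.0142). With DESeq2 the adjusted p of Cxcl9 was 0.053, and the 2 genes it called by host were both lower. S100a8 and S100a9, the calcium-binding proteins of neutrophils, fell by 3.62 and 3.34 on the log2 scale in KO hosts (edgeR adjusted p = 8.2e-05 and 8.45e-05). S100a8 had 36.5 CPM in intact KO, 20.9 in KO-to-KO and 12.2 in WT-to-KO, against 410 in intact WT and 189 in KO-to-WT, again with no overlap. Fits by marrow or host with 1 library left out held no term for transplantation, so the model changed along with the libraries. None of the 3 calls held throughout when 1 library was left out. S100a8 and S100a9 passed in none of the 5 such edgeR fits, with adjusted p of at least 0.0558 and 0.0656, and Cxcl9 passed only without intact WT (adjusted p = 0.0423). There were 0 calls by host without intact KO, KO-to-KO or KO-to-WT. Without intact WT 5 genes passed and without WT-to-KO 4 did, all of them higher. By marrow, leaving out WT-to-KO gave 71 calls, 2 higher and 69 lower.

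Levels of neutrophil and macrophage genes can be set beside these calls. Summed neutrophil markers in the smaller B cells were 101 CPM in intact KO, 57.4 in KO-to-KO and 24.4 in WT-to-KO, against 815 in intact WT and 445 in KO-to-WT. The 4 summed genes include S100a8 and S100a9 themselves, at 410 and 364 CPM in intact WT. The sum therefore largely repeats those calls and is no separate evidence. The Cxcl9 RNA that the libraries' free macrophage RNA alone would give, taken from macrophage genes other than C1q, was 85.7 CPM in intact KO, 236 in KO-to-KO and 18.6 in WT-to-KO, against 9.35 in intact WT and 9.95 in KO-to-WT, at or above the B cell level in 4 of those 5 libraries. The part of either marker list in the calls was not tested. Summed over all B cells, large ones included, 8 of 8625 genes passed by marrow (0.0928%) and 4 by host (0.0464%). By marrow, Ctsk, Ccl5 and Ccl22 rose (0.0348%) and Cenpf, Serpinh1, Brinp3, Fcrls and Crabp2 fell (0.058%). By host, Cxcl9 rose (0.0116%) and Ctsk, Col1a1 and Lpl fell (0.0348%). Leaving out WT-to-KO turned Serpinh1, Crabp2 and Cenpf by marrow to 1.62, 1.77 and 0.66 on the log2 scale. The count by marrow was then 0, as it was without KO-to-KO, against 3 without intact KO, 33 without intact WT and 21 without KO-to-WT. The count by host was 0 or 1 whichever library was left out.

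No gene of the lists of B cell function passed by marrow or host in the smaller B cells. Of 18 genes of the B cell receptor complex and its signalling, all 18 were tested and 0 passed by marrow or by host; their median log2 fold change was 0.00 and -0.08, against 0.01 and -0.02 for all genes. Lyn, a kinase of the receptor, had 1340 CPM in intact KO, 303 in KO-to-KO and 218 in KO-to-WT, against 901 in intact WT and 232 in WT-to-KO. All 15 B cell transcription factors were tested and 0 passed, with medians of -0.25 by marrow and -0.15 by host. Among 10 follicular and naive genes 0 passed, with medians of -0.04 and 0.12. Klf2, which keeps naive lymphocytes quiescent, had 1118 CPM in intact KO, 862 in KO-to-KO and 983 in KO-to-WT, against 277 in intact WT and 2360 in WT-to-KO. Its 2 WT-marrow libraries were the lowest and the highest of the 5. Over all B cells 0 genes of these lists passed as well, but the medians by marrow were higher: 0.74 for the receptor list, 0.52 for the transcription factors and 0.63 for the follicular and naive genes, against 0.02 for all genes. By host they were -0.39, -0.45 and -0.27.

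RNA of the antigen-presenting MHC class II complex was high in the smaller B cells, and presentation itself was not measured. H2-Aa, a chain of that complex, had 4938 CPM in intact KO, 5023 in KO-to-KO and 4567 in KO-to-WT, against 4242 in intact WT and 5536 in WT-to-KO. All 10 class II genes were tested and 0 passed, with medians of -0.08 by marrow and 0.08 by host. Over all B cells the class II medians were 0.74 by marrow and -0.03 by host, and 0 passed. Of the genes induced by receptor signalling, 14 of 15 were tested and 0 passed, with medians of -0.27 and -0.02. Cd69, an early activation marker, had 280 CPM in intact KO, 209 in KO-to-KO and 362 in KO-to-WT, against 260 in intact WT and 445 in WT-to-KO. Lists for survival signals through the BAFF receptor and CD40, homing and Toll-like receptors had 9 of 10, 10 of 10 and 5 of 6 genes tested, and 0 passed by either genotype. Tnfrsf13c, the BAFF receptor, had 77.0 CPM in intact KO, 151 in KO-to-KO and 123 in KO-to-WT, against 110 in intact WT and 128 in WT-to-KO.

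Irf1, Tap1, H2-K1 and Ly6a, genes of the interferon and MHC class I lists, had their highest levels in the 2 libraries with KO in host and marrow together. Irf1, a transcription factor induced by interferon-gamma, had 165 CPM in intact KO (148 to 184, from 326 UMIs) and 162 in KO-to-KO (110 to 230, from 31 UMIs). It had 46.1 CPM in KO-to-WT (31.1 to 65.8, from 30 UMIs), 47.6 in intact WT (32.6 to 67.2, from 32 UMIs) and 18.3 in WT-to-KO (3.77 to 53.5, from 3 UMIs). The 2 libraries with KO in both compartments did not overlap the other 3. Free macrophage RNA alone would give 8.48 CPM of Irf1 in intact KO and 24.3 in KO-to-KO, and 1.65 to 4.18 in the other 3 libraries.

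Tap1, the peptide transporter that loads MHC class I, had 89.2 CPM in intact KO and 146 in KO-to-KO, against 52.2 in KO-to-WT, 29.7 in intact WT and 36.6 in WT-to-KO. H2-K1, a class I heavy chain, had 1572 CPM in intact KO (1517 to 1628) and 2261 in KO-to-KO (2053 to 2484), against 1377 in KO-to-WT (1289 to 1470), 812 in intact WT (745 to 883) and 1207 in WT-to-KO (1045 to 1388). Ly6a, an interferon-induced surface protein, had 399 CPM in intact KO and 841 in KO-to-KO, against 333 in KO-to-WT, 199 in intact WT and 140 in WT-to-KO. Class I genes have close copies, and reads shared with them may be split by the counting. For all 3 genes the libraries with KO in both compartments lay above the other 3.

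A fit chosen after seeing these values held 1 term for KO in host and marrow together beside transplantation, so its p-values are too favourable by an amount not measured here. In it 53 of 6823 genes passed (0.777%), 16 higher (0.235%) and 37 lower (0.542%). Irf1 rose by 1.81 (SE 0.31, edgeR adjusted p = 0.00617), Tap1 by 1.49 (SE 0.32, adjusted p = 0.0174), H2-K1 by 0.76 (SE 0.13, adjusted p = 0.00644) and Ly6a by 1.30 (SE 0.28, adjusted p = 0.041), all log2. Of 20 interferon genes 9 were tested, 8 had a positive fold change and 2 passed (Irf1 and Ly6a), with a median of 1.16 against -0.02 for all genes. That median was 0.68 without KO-to-KO, a fit in which the term rests on intact KO against intact WT alone. It was 1.99 without intact KO and 2.01 without intact WT. In both of these fits the term rests on KO-to-KO alone against KO-to-WT and WT-to-KO. Isg15 (log2 2.18, edgeR adjusted p = 0.143) and Zbp1 (1.54, adjusted p = 0.193) were among the positive ones that did not pass, and Ifit3, at -0.11 (adjusted p = 0.999), was the negative one. All 10 MHC class I genes were tested and positive and 2 passed, with a median of 0.66. With marrow and host as separate terms, 0 genes of either list passed; the interferon medians were 0.87 by marrow and 0.28 by host and the class I medians 0.23 and 0.33. Over all B cells the interferon medians were 1.68 by marrow and 0.53 by host and the class I medians 0.86 and 0.18, again with 0 passing, so the order of the class I medians turned round. DESeq2 called 1 gene in this comparison, a lower one, so Irf1, Tap1, H2-K1 and Ly6a did not pass with it. Leaving out 1 library moved the 53 calls to 1 without KO-to-WT, a lower gene, and to 8 without WT-to-KO. Without intact KO, intact WT or KO-to-KO the term rests on 1 library with KO in both compartments, so those counts are not given.

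Irf1 was also read in other cells. In T cells it had 148 CPM in intact KO and 120 in KO-to-KO, against 94.2 in KO-to-WT, 57.1 in intact WT and 113 in WT-to-KO. In macrophages it had 197 CPM in intact KO and 237 in KO-to-KO, against 49.3 in KO-to-WT, 27.5 in intact WT and 45.8 in WT-to-KO. In T cells intact KO and KO-to-KO lay above the other 3 libraries, with WT-to-KO at 113 CPM next to KO-to-KO at 120, and in macrophages the gap was wider. Whether B cells differ from these cells in the size of the change was not tested.

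**Figure D5:**
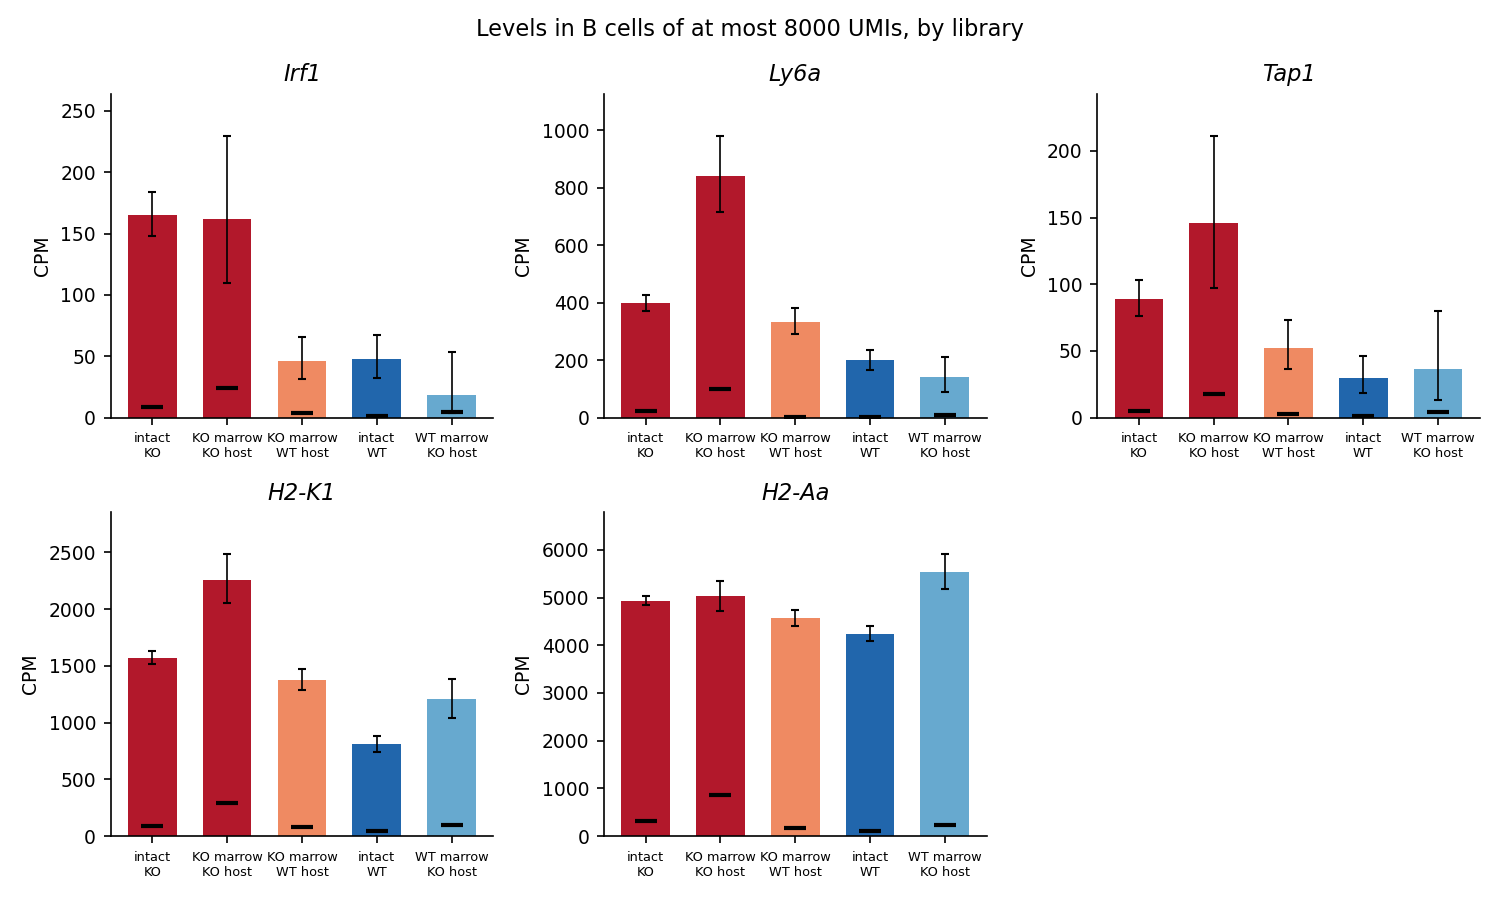
Levels in CPM of 4 interferon or MHC class I genes and of the class II gene H2-Aa in B cells of at most 8000 UMIs, 1 bar per library with exact Poisson intervals; the short black line in each bar is the level that free macrophage RNA alone would give. Irf1, Ly6a, Tap1 and H2-K1 are highest in intact KO and KO-to-KO, and H2-Aa lies between 4242 and 5536 CPM in all 5 libraries.

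Interferon-stimulated genes are known to be switched on through short promoter elements, the ISRE and the GAS. The 250 bases before the RefSeq start (GRCm38.p6) are shown for Irf1, Tap1, H2-K1 and Gbp2. The first 3 passed in the smaller B cells in the fit chosen after values were seen. Gbp2, a guanylate-binding protein, passed in that fit over all B cells only. The sequences let a reader see whether these letters stand before genes named together here. The strings searched were GAAA, then 2 bases of any kind, then GAAA for the ISRE, and TTCNNNGAA for the GAS. Capitals mark a match to either string on either strand, read 5′ to 3′ along the gene. The windows are, for Irf1, chr11:53769764-53770013 (plus strand), for Tap1, chr17:34187306-34187555 (plus), for H2-K1, chr17:34000348-34000597 (minus) and, for Gbp2, chr3:142620413-142620662 (plus).
Irf1: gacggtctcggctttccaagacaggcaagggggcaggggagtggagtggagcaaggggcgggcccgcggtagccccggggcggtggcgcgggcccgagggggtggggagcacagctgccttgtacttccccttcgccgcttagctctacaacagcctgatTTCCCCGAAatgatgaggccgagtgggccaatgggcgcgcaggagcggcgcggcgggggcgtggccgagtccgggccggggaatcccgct
Tap1: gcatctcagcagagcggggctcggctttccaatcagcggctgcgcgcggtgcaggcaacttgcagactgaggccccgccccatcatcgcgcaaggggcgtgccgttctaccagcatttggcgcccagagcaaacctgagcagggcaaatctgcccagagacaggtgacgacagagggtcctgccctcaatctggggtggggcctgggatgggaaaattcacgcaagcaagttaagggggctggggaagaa
H2-K1: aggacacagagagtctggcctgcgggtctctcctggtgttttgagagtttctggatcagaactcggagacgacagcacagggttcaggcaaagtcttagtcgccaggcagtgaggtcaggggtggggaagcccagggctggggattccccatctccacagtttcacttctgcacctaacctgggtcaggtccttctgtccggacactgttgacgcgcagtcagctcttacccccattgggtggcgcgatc
Gbp2: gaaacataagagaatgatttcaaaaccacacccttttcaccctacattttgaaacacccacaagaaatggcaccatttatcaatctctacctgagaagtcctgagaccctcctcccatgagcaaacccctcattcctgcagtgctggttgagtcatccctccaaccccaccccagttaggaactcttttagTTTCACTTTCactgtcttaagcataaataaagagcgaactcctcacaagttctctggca
Irf1 held a GAS string that begins 90 bases before the start, and Gbp2 an ISRE string on the minus strand that begins 59 bases before it. Tap1 and H2-K1 held neither string in this window. Only exact matches to these strings were searched, so elements that depart from them were not counted. Over all 32851 promoters of the table, 2.98% held the ISRE string and 7.02% the GAS string. Of the 20 interferon genes 12 had an entry, of which 7 held the ISRE string and 4 the GAS string. Of the 10 MHC class I genes 8 had an entry, of which 1 held each. Gbp2 had 71.8 CPM over all B cells in intact KO and 121 in KO-to-KO, against 8.64 in KO-to-WT, 4.995 in intact WT and 11.6 in WT-to-KO (log2 fold change 3.71, SE 0.39, edgeR adjusted p = 0.0229 over 8625 genes, the 1 call of that fit or 0.0116%). In the smaller B cells Gbp2 had 12.7 CPM in intact KO and 198 in KO-to-KO, where free macrophage RNA alone would give 12.7 and 42.6.

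Other genes that rose with KO in both compartments in the smaller B cells include Nr4a2, Gfod1, AA467197, 4933406I18Rik, Ifitm3, Pde3b, Rasa3, Pim1, Cd86, Gpr132 and the mitochondrial genes mt-Nd1 and mt-Nd4. For AA467197, 4933406I18Rik, Ifitm3, Pde3b, Cd86 and mt-Nd4 the 2 libraries overlapped the other 3, and 4933406I18Rik was at 0 in KO-to-KO. In intact KO, AA467197 had 23.3 CPM and Ifitm3 37.5, where free macrophage RNA alone would give 33.1 and 33.997. Cd86, a co-stimulatory ligand for T cells, had 854 CPM in intact KO and 172 in KO-to-KO, against 120 in KO-to-WT, 244 in intact WT and 91.5 in WT-to-KO (log2 1.19, SE 0.28, edgeR adjusted p = 0.0324). Intact WT lay above KO-to-KO. Nr4a2, an orphan nuclear receptor induced by activation, had 29.4 and 78.3 CPM in intact KO and KO-to-KO, against 10.7 in KO-to-WT, 5.95 in intact WT and 0 in WT-to-KO (log2 2.72, SE 0.58, edgeR adjusted p = 0.0182). Free macrophage RNA would give 11.3 and 28.8 CPM of Nr4a2 in the first 2 libraries.

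Of the 37 genes that fell with KO in both compartments, 23 were ribosomal protein genes. Of all 82 ribosomal protein genes tested, 78 had a negative fold change, with a median of -0.32, and 79 did with DESeq2's scaling. Rpl30 fell by 0.55 on the log2 scale (SE 0.10, edgeR adjusted p = 0.00644). All ribosomal protein genes together took 25.1% of the UMIs in intact KO and 30.1% in KO-to-KO, against 34.6% in KO-to-WT, 30.1% in intact WT and 34.9% in WT-to-KO. Within intact mice KO was below WT, and within transplanted mice KO-to-KO was below the other 2. Mitochondrial UMIs took 3.90% in intact KO and 5.41% in KO-to-KO, against 4.63% in KO-to-WT, 3.03% in intact WT and 4.21% in WT-to-KO. Their part in the result was not tested.

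The rest of the lower genes included macrophage genes. Apoe, a lipid carrier that macrophages make in quantity, had 1071 CPM in intact KO and 2705 in KO-to-KO, against 4126 in KO-to-WT, 2721 in intact WT and 4676 in WT-to-KO (log2 -1.08, SE 0.13, edgeR adjusted p = 0.000873). Free macrophage RNA would give 848 CPM in intact KO and 2538 in KO-to-KO, against 3291, 2176 and 4056 in the other 3 in the same order, an estimate that Apoe itself enters. Fcrls, F13a1 and Cbr2, also macrophage genes, fell too, and Cbr2 was at 0 in both libraries with KO in both compartments. The 8 macrophage markers, Apoe among them, summed to 1914 CPM in intact KO and 5467 in KO-to-KO, against 6354 in KO-to-WT, 4458 in intact WT and 7579 in WT-to-KO. That sum in part repeats the Apoe values. Among genes that are not of macrophages, Trib2 had 17.2 CPM in intact KO and 10.4 in KO-to-KO, against 46.1 in KO-to-WT, 63.9 in intact WT and 24.4 in WT-to-KO (log2 -1.99, SE 0.44, edgeR adjusted p = 0.0255).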

How the data were processed

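Libraries were made from 15000 sorted CD45+ cells each with 10x 3′ v3.1 chemistry, per the labels' protocols. The authors deposited filtered count matrices of unique molecular identifiers (UMIs), made with Cell Ranger 7.0.1 for the intact mice and Cell Ranger 6.1.1 for the transplanted mice, per the file headers, on mm10, per the submitters' processing notes. The handling of intronic reads was not stated, and software version and transplantation coincide. The 30406 gene IDs shared by all 6 matrices were used for levels and tests. CPM are UMIs per 1000000 UMIs, summed over the cells of a library.

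B cells were chosen by the rule given at the start. The cells, the gene lists and the tests were chosen with earlier results of these data known, and the limit of 8000 UMIs and the term for KO in host and marrow together were chosen after seeing the values. Scrublet (in scanpy 1.11.5) with its automatic cut marked 0 to 172 barcodes per library, 1 of them a B cell, and did not work as a caller by that measure, so doublets were left in and removal of the 6% of barcodes with the highest score was an alternative.

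With 1 library per group, libraries were compared by marrow or host genotype. No group has a second library, so no p-value measures the spread between like libraries. Summed counts were tested with the edgeR 4.0.16 quasi-likelihood test (TMM, filterByExpr, Benjamini-Hochberg over all genes tested, adjusted p under 0.05) in the 5 libraries with at least 20 B cells. The fit by marrow and host leaves 1 residual degree of freedom. The fit by KO in both has 1 term fewer and leaves more. In the fit by marrow and host, the spread of a gene was mostly borrowed from other genes. Their median weight was 16.24 degrees of freedom in the smaller B cells and 32.79 over all B cells. DESeq2 1.42.0 was an alternative. Shares were tested with two-sided exact permutation tests (scipy 1.17.1), and intervals of shares and levels are exact binomial and exact Poisson at 95%. A share of 0 is given with the limit that 3 counts would give. These limits cover counting error only. Shares of cells with a UMI were repeated after thinning each cell to 1000 UMIs. Free macrophage RNA in B cells was estimated per library as the summed level of Csf1r, Adgre1, Apoe, Lyz2 and Cd68 in B cells as a percentage of that in macrophages, times a gene's macrophage level. The fit was tested on simulated counts with known changes. By marrow genotype it missed most of the changed genes, nearly all of those with the smaller change, and over all B cells a sizeable part of its calls were of unchanged genes, so a count of 0 does not show that levels were equal and single calls over all B cells are uncertain.

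Genes were named by a rule: up to 10 genes per direction past the threshold with 1 sign in every matched pair, 5 per direction where fewer passed, up to 6 of each list whose mean reached 20 CPM, Mtdh itself and the 15 genes with the highest ratio of B cells over T cells and macrophages. Genes of the comparison by KO in both compartments were named after their values were seen. Gene positions are from GENCODE vM21, and promoter sequences from RefSeq (GRCm38.p6, 250 bases before the start of each gene). A few genes of the lists are not reported here.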

Additional observations from a re-analysis of the deposited data

Results flagged for a closer look

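The host comparison of the B cell share had opposite signs in mice given KO and WT marrow. On the log2 scale, KO minus WT host was -1.91 with KO marrow and 3.08 with WT marrow for the share of kept barcodes. For the share of B and T cells it was -2.78 with KO marrow and 3.50 with WT marrow. Each value compares 1 library with 1 library, and the WT-to-WT library behind the positive values held 8 B cells, so the difference between the 2 host comparisons was not tested.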

How the results depend on the processing

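The mean log2 difference of the B cell share by marrow stayed positive with each library left out, from 0.96 to 3.22. By host it ranged from -0.63 to 1.86 and changed sign without intact KO (-0.09) and without WT-to-WT (-0.63). As a share of B and T cells it ranged from -0.89 to 1.43 by marrow, with -0.18 without intact KO and -0.89 without WT-to-WT. The lambda share by marrow ranged from -3.33 to 1.22 percentage points, the last without WT-to-KO, the switched share from 0.12 to 4.07 and the share with both light chain kinds from -11.7 to -3.25. Counts of genes called depended on most settings. For all B cells the 8 calls by marrow, 4 by host and 1 by KO in both were 1, 0 and 1 with all 6 libraries. They were 0, 1 and 19 with DESeq2, 0 each with the genotype term alone, 33, 14 and 2 without immunoglobulin genes, 77, 29 and 98 without a filter on low counts, and 31, 8 and 14 with the stricter choice of B cells. With 1 library left out they ranged from 0 to 33, 0 to 1 and 7 to 169. For B cells of at most 8000 UMIs the 0 calls by marrow became 3 without a filter and 6 with the stricter choice, and 0 to 71 with 1 library left out. The 3 calls by host became 5 with all 6 libraries, 0 with the genotype term alone, 7 without a filter, 8 with the stricter choice and 0 to 5 with 1 library left out. The 53 calls by KO in both became 29 with all 6 libraries, 1 with DESeq2, 0 with the genotype term alone, 27 with the stricter choice and 1 to 201 with 1 library left out. Thinning to 1000 UMIs lowered the mean share of cells with a UMI of the follicular list to 97.4%, of the germinal centre list to 4.33%, of the plasma cell list to 28.1% and of the memory list to 32.5%. Among single genes of all B cells, Serpinh1 (1.62), Crabp2 (1.77) and Cenpf (0.66) by marrow changed sign without WT-to-KO, and Cenpf was 3.56 with the stricter choice. Their lowest values with 1 library left out were -9.48, -5.99 and -3.83. Col1a1 (0.81) and Mtdh (0.95) by host changed sign without KO-to-WT, with lowest values of -7.98 and -1.46. Mtdh by host in B cells of at most 8000 UMIs was 0.087 with the stricter choice, 0.084 without KO-to-KO and 0.56 without KO-to-WT, with a lowest value of -0.95. Fits by marrow or host with 1 library left out also lacked the term for transplantation. The cause of these changes was not tested. The shallowest sums of the smaller B cells were 164144 UMIs in WT-to-KO and 191691 in KO-to-KO. No paired analysis was possible because each group is 1 library and no replicate number is shared between groups; the matched pairs are ratios of single libraries.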
